A study of Mus musculus with 4 samples.

Results

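The collagens are described here across the cell classes of the mouse pancreas, as all genes whose symbol reads Col, a number, a and a number. This name rule found 44 genes of 27 collagen types among the 31053 features counted, and used no expression value. Of the 44, 43 had at least 1 UMI (unique molecular identifier, a tag that lets each captured RNA molecule be counted once) and 30 reached 100 UMIs in at least 1 cell class. The study gave wild-type C57BL/6 mice saline or caerulein, an analogue of the gut hormone cholecystokinin that overstimulates acinar cells and causes pancreatitis, and let them recover for 2 days or for 6 weeks. The 4 groups were saline with 2 days of recovery, caerulein with 2 days, saline with 6 weeks and caerulein with 6 weeks, and the labels call the saline groups free of inflammation. Pancreas cells that excluded the dye DAPI, which enters dead cells, were sorted and sequenced as single-cell 3′ libraries. There was 1 library per group, so no difference between groups has a replicate check and no p-value is given. Age, sex and the number of mice behind a library are not given in the sources used here.

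Collagens are proteins of the extracellular matrix in which 3 chains wind into a triple helix. Fibril-forming collagens such as types I, III and V build the cables of connective tissue, type IV builds the sheet-like network of basement membranes, and type VI forms beaded microfibrils between them. Smaller classes bind to fibril surfaces, anchor epithelia, span cell membranes or, as the multiplexins types XV and XVIII, lie at basement membranes. In the pancreas, fibroblasts and stellate cells are known as the main source of fibrillar collagen after injury, while ductal, acinar and vascular cells rest on basement membranes that hold type IV collagen.

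After filtering, 3308 cells from saline and 4651 from caerulein at 2 days, and 2018 from saline and 2743 from caerulein at 6 weeks, were clustered with the 44 collagens left out. The caerulein library at 2 days was deeper, with a median of 14057 UMIs per cell against 8325 to 10541 in the others. Pairs of libraries shared 3 to 22 cell barcodes. Fibroblast-like cells numbered 687, 588, 746 and 1112, in the order saline and caerulein at 2 days and saline and caerulein at 6 weeks. That order is kept wherever 4 values are listed. Blood endothelial-like cells numbered 48, 109, 140 and 16, ductal-like cells 771, 176, 219 and 555, and acinar-like cells 427, 362, 443 and 356. Mural-like cells, the pericytes and smooth muscle cells of vessels, numbered 23, 24, 17 and 18. All 12 fibroblast, 12 mural, 12 blood endothelial, 12 ductal and 13 acinar markers were present in the class they define. A cluster of 472 epithelial cells, 456 of them from caerulein at 2 days, carried both ductal and acinar markers and was kept apart without a name. No cluster was named mesothelial or Schwann.

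Levels are CPM, UMIs of a gene per 1000000 UMIs of a class in a library. Because 3′ reads count molecule ends, they are not divided by gene length. Ratios between groups are log2 values on TMM-scaled totals, a scaling that centres most genes, and the interval in brackets is an exact 95% interval that covers counting error only. A gene was measured in a comparison with at least 100 UMIs over both libraries, and is called higher or lower at a 2-fold difference or more. With 1 library per group this rule describes size and is not a test.

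Fibroblast-like cells held the most collagen, and most of the difference at 2 days was in them. Collagen RNA made up 1.27% of fibroblast UMIs in saline and 4.23% in caerulein at 2 days, and 1.47% and 1.34% at 6 weeks. In UMIs per fibroblast this was 138 and 989 at 2 days and 194 and 161 at 6 weeks. The caerulein library at 2 days was thus the high value, and the other 3 lay close together. Of 27 collagens measured at 2 days, 12 were higher after caerulein and 2 were lower. Of the 27, 24 had 50 UMIs in both libraries, and Col6a5, Col7a1 and Col11a1 reached the minimum mainly through caerulein. Among all 9943 genes measured in these cells, 9.41% were higher and 5.78% were lower. The median log2 ratio was 0.88 for the collagens and 0.04 for all genes.

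**Figure D1:**
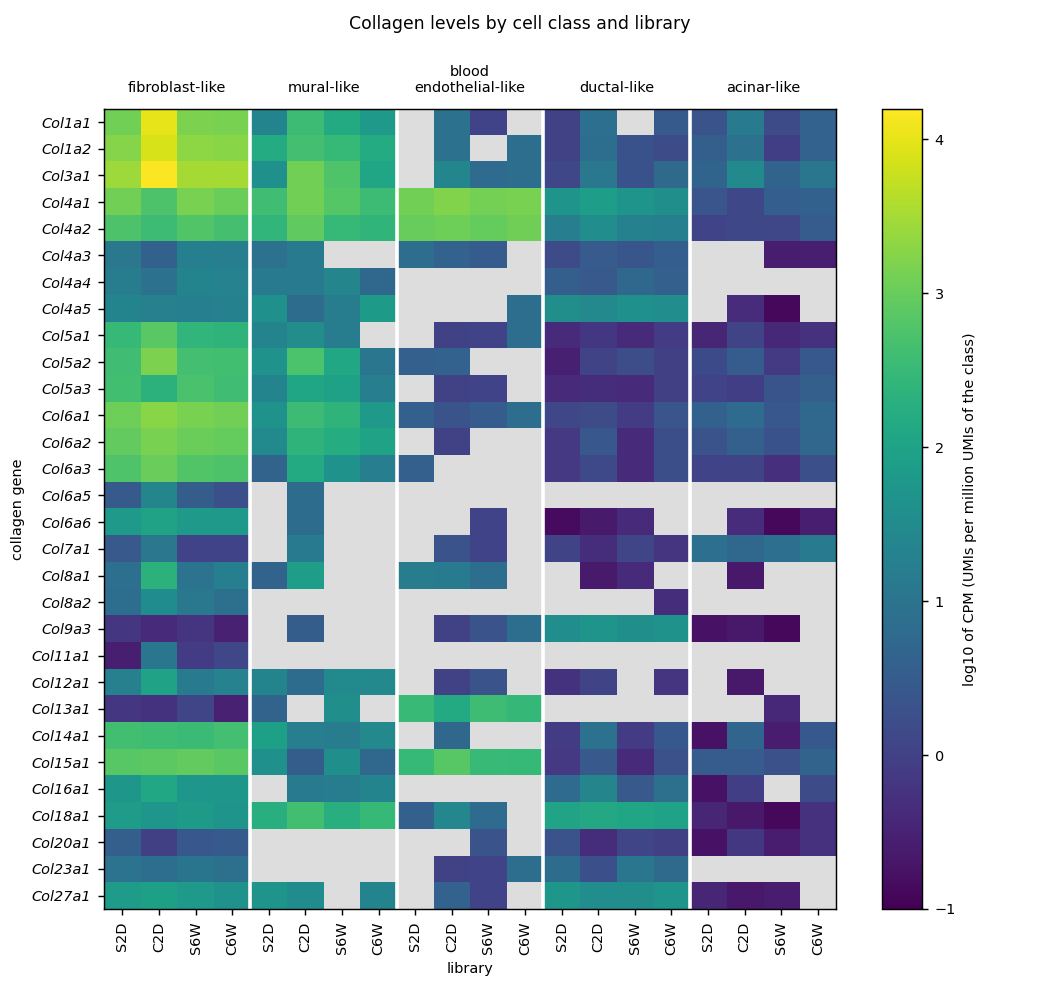
CPM of the collagens that reached 100 UMIs (rows) in each cell class and library (columns), with colour on a log scale. Fibroblast-like cells of the caerulein library at 2 days have the highest levels of Col1a1 and Col3a1, and type IV collagen is spread over fibroblast-like, mural-like and endothelial-like cells.

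Among the fibril-forming collagens, Col3a1, the single chain of type III collagen, was the most abundant. It measured 2739 CPM in saline and 14783 CPM in caerulein at 2 days, and 3206 and 3154 CPM at 6 weeks. The log2 ratio at 2 days was 2.55 (2.53 to 2.57), or 5.84-fold. Col1a1, the chain present in 2 copies in the usual type I molecule, measured 1222, 10245, 1518 and 1412 CPM. Its log2 ratio at 2 days was 3.18 (3.15 to 3.21), or 9.07-fold. Col1a2, the other type I chain, measured 1793, 7561, 2039 and 1898 CPM, a log2 ratio of 2.19 and 4.56-fold. For all 3 genes caerulein at 2 days stood alone, and the 2 saline libraries differed from each other by far less than from it. UMIs of Col1a1 per UMI of Col1a2 were 0.682 in saline and 1.36 in caerulein at 2 days, and 0.744 in both libraries at 6 weeks. Col1a1 was therefore the lesser type I chain by count in 3 libraries and the greater in caerulein at 2 days.

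Type V chains, which copolymerise with type I and set fibril diameter, split. Col5a1 measured 310, 724, 261 and 245 CPM, with a log2 ratio of 1.34 (1.27 to 1.40) at 2 days. Col5a2 measured 404, 1481, 438 and 432 CPM, with a log2 ratio of 1.99 (1.93 to 2.05). Col5a3 went the other way at 424, 225, 500 and 408 CPM, a log2 ratio of -0.80 (-0.88 to -0.73) that lay within 2-fold. Col11a1, a fibril-forming chain best known from cartilage, was counted 2, 149, 8 and 17 times. Its log2 ratio at 2 days was 5.45 (3.57 to 8.51), an interval wide because of the 2 UMIs in saline. Col27a1 stayed within 2-fold at 75.5, 88.7, 63.3 and 47.8 CPM. Col24a1 was under the minimum, with 0, 86, 1 and 1 UMIs in fibroblast-like cells, and is named here because of those values. Its 86 UMIs were nearly all of the 88 counted in that class.

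Of the 5 basement membrane collagens measured in these cells, 2 were lower, 0 were higher and 3 stayed within 2-fold. Col4a1, with Col4a2 the chain of the common type IV network, measured 1211, 555, 1451 and 1089 CPM, a log2 ratio of -1.01 (-1.06 to -0.97) at 2 days. In UMIs per cell Col4a1 was nearly the same at 2 days, 13.1 in saline and 13 in caerulein, in cells whose total was 10835 UMIs in saline and 23398 in caerulein. Col4a1 lay just past the size rule and would be within it at -0.995 if called doublets were kept. Col4a2 measured 561, 362, 626 and 470 CPM, a log2 ratio of -0.52, within 2-fold. Col4a3 and Col4a4, chains of the network best known from the kidney glomerulus, were scarce. Col4a3 measured 11.7, 4.22, 17.4 and 16.5 CPM with a log2 ratio of -1.36 (-1.86 to -0.86), and Col4a4 measured 15.2, 9.23, 22.4 and 20.1 CPM with -0.60 (-0.98 to -0.22). Col4a5 was level at 22.3, 18.8, 17.8 and 19 CPM. Fibril-forming genes held 54.7% of fibroblast collagen UMIs in saline at 2 days, 83.1% in caerulein at 2 days, and 54.5% and 56.7% at 6 weeks. The basement membrane genes held 14.3%, 2.25%, 14.5% and 12.1%.

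**Figure D2:**
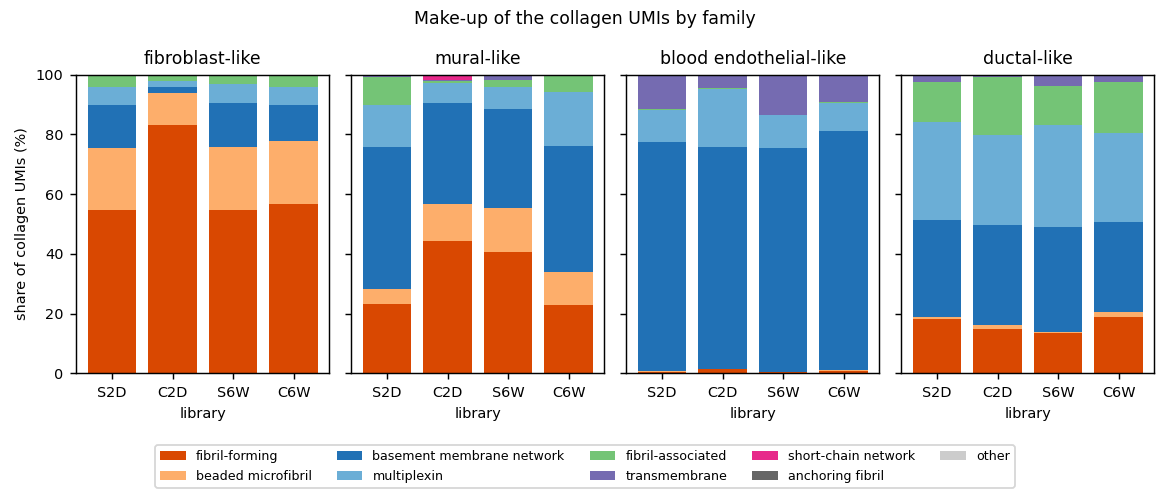
Share of collagen UMIs by structural family (stacked bars, percent from 0) in each class and library. In fibroblast-like cells the fibril-forming share is 83.1% in caerulein at 2 days against 54.5% to 56.7% in the other libraries, whereas in blood endothelial-like cells the basement membrane share stays between 74.1% and 80.1%.

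The type VI chains that form the usual trimer were each higher at 2 days but within 2-fold. Col6a1 measured 1106, 1881, 1406 and 1262 CPM (log2 ratio 0.88), Col6a2 measured 887, 1451, 1074 and 943 CPM (0.82), and Col6a3 measured 591, 1015, 604 and 551 CPM (0.90). The 3 moved by nearly the same amount, and Col6a1 per Col6a2 stayed between 1.25 and 1.34 in the 4 libraries. Of the additional type VI chains, Col6a6 measured 63.7, 101, 62.0 and 61.5 CPM (0.78). Col6a5 was rare in 3 libraries, with 22, 314, 33 and 25 UMIs and a log2 ratio of 3.06 (2.44 to 3.76) at 2 days.

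The short-chain network collagen type VIII, known from vessel walls and injured tissue, gave one of the widest gaps. Col8a1 was counted 60, 2994, 92 and 231 times in fibroblast-like cells, or 8.06 (6.15 to 10.4), 218 (210 to 226), 9.37 (7.55 to 11.5) and 17.3 (15.2 to 19.7) CPM. Its log2 ratio at 2 days was 4.87 (4.5 to 5.26), or 29.2-fold. Its partner chain Col8a2 measured 7.66, 33.7, 11.8 and 8.48 CPM, a log2 ratio of 2.25 (1.85 to 2.67). Among collagens that bind fibril surfaces, Col12a1 measured 18.8, 98.6, 14.5 and 19.9 CPM (2.50, interval 2.25 to 2.77) and Col16a1 measured 55.8, 131, 53.5 and 57.7 CPM (1.35, interval 1.19 to 1.51). Col14a1, the close relative of Col12a1, was level at 418, 384, 353 and 447 CPM (-0.01). Col12a1 per Col14a1 was accordingly 0.257 in caerulein at 2 days and 0.0410 to 0.0450 in the other libraries. Col7a1, the chain of anchoring fibrils, was counted 21, 159, 11 and 15 times (2.15, interval 1.49 to 2.88). The multiplexins stayed within 2-fold, Col15a1 at 694, 769, 884 and 752 CPM (0.26) and Col18a1 at 75.9, 53.4, 69.8 and 50 CPM (-0.39). Col23a1, a membrane-spanning collagen, also stayed within it at 9.54, 7.41, 10.5 and 8.41 CPM (-0.25).

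**Figure D3:**
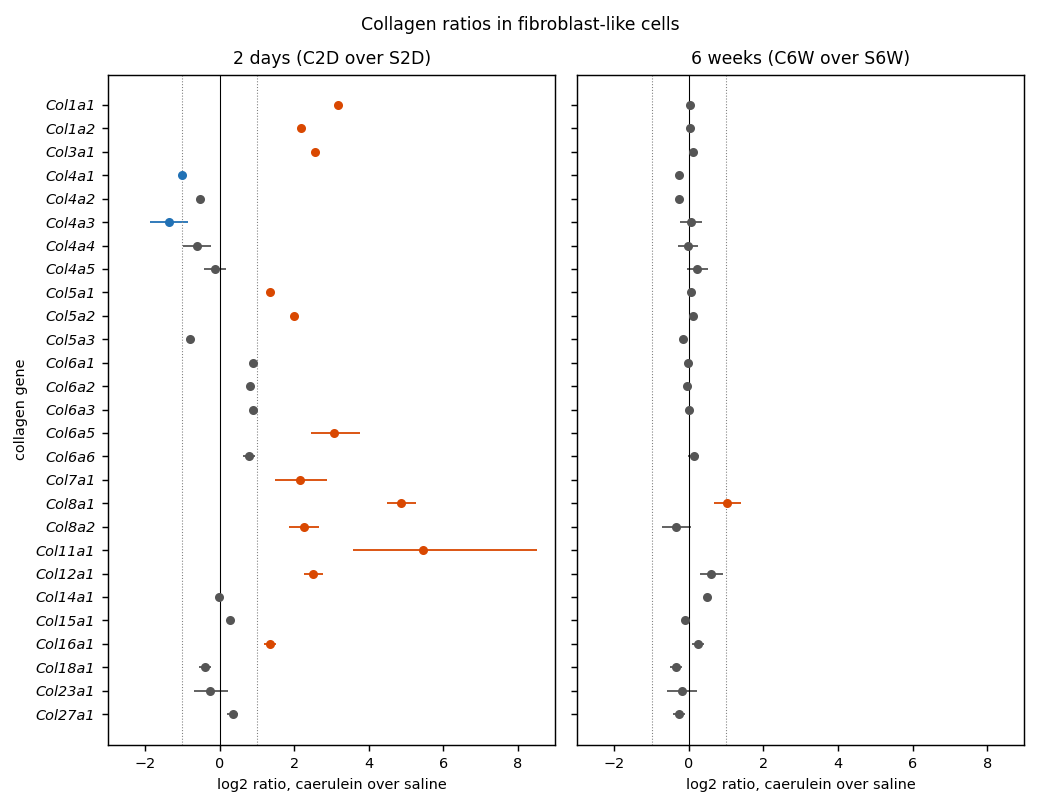
Log2 ratio of caerulein over saline in fibroblast-like cells for each measured collagen, at 2 days and at 6 weeks, with exact 95% intervals for counting error and lines at 2-fold. At 2 days 12 genes lie above the upper line and 2 below the lower, and at 6 weeks Col8a1 alone lies past a line, at 1.02.

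The libraries also differed in ways that moved with these values. The summed level of the 12 fibroblast markers in fibroblast-like cells was 57297, 19578, 60547 and 54997 CPM. Within that list Dcn, a small proteoglycan that binds collagen fibrils, measured 19386, 8152, 18760 and 18819 CPM. Acinar markers summed to 13343, 2621, 7746 and 5568 CPM and macrophage markers to 304, 1487, 159 and 216 CPM in the same cells. The part of these differences in the collagen values was not tested. Free RNA was read from lymphocyte-like cells, which held 0.160, 0.635, 0.230 and 0.289 collagen UMIs per cell. Of the collagens with a UMI in fibroblast-like cells, 29 of 36, 29 of 41, 25 of 39 and 27 of 38 exceeded the lymphocyte level per cell beyond counting error. The share of all genes that did so was not counted. Fibroblast-like cells also held more RNA per cell, 23398 UMIs against 6786 in lymphocyte-like cells in caerulein at 2 days.

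Fibroblast-like cells fell into 5 clusters, and the libraries filled them unequally. The cluster led by Mgp, Cilp and Postn held 2, 533, 4 and 11 cells, so nearly all caerulein fibroblasts at 2 days were in it and few of any other library were. The few Postn-led cells of the other libraries measured 2839, 3913 and 4109 CPM of Col1a1, against 10381 CPM in those of caerulein at 2 days. Such a cluster may be a library rather than a cell type, and the 2 cannot be told apart here. The Ptn-led cluster alone held at least 20 cells of every library, with 35, 34, 56 and 150. In it, collagen took 1.40%, 3.67%, 1.69% and 1.33% of UMIs. Col1a1 measured 2291, 9595, 3199 and 1923 CPM and Col3a1 measured 2635, 11943, 4039 and 3035 CPM in those cells. Their log2 ratios at 2 days within the Ptn-led cluster were 2.19 and 2.30. Col1a2, Col5a2 and Col4a1 were also past the size rule there, at 1.58, 1.91 and -1.09. In all, 4 collagens were higher and 1 was lower of 16 measured in the Ptn-led cluster, against 6.52% and 4.12% of all genes. The higher ones were all fibril-forming chains and the lower one was Col4a1.

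Leaving out the Postn-led cluster kept 55 caerulein cells at 2 days, of which 34 were Ptn-led, and 685 saline cells, of which 35 were, so the libraries then compared differ in their clusters. Of 21 collagens then measured, 7 were higher and 3 were lower, against 4.2% and 9.13% of all genes. Col1a1, Col1a2, Col3a1 and Col5a2 stayed higher, at 2.74, 1.98, 2.02 and 1.06. Col4a1, Col4a2 and Col5a3 were lower, at -1.94, -1.45 and -1.53. Col4a3 changed direction, to 0.645. Col5a1 and Col12a1 fell within 2-fold at 0.71 and 0.78, while Col4a5, Col6a6 and Col16a1 were higher at 1.96, 1.59 and 1.27.

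In the saline libraries and in caerulein at 6 weeks the clusters differed among themselves by collagen. Col15a1 measured 952, 1111 and 1046 CPM in the larger Smoc2-led cluster (saline at 2 days, saline at 6 weeks and caerulein at 6 weeks) and 123, 132 and 92.2 CPM in the Pi16-led cluster. Col4a1 followed the same order, with 1564, 1686 and 1426 CPM in that Smoc2-led cluster and 388, 486 and 374 CPM in the Pi16-led cluster. Col14a1 took the reverse order, at 279, 227 and 267 CPM against 744, 892 and 1021 CPM. Col6a6 measured 86.1, 80.6 and 85.2 CPM against 11.7, 19.8 and 12 CPM. These 4 genes are examples, and how many of all genes separate the 2 clusters in this way was not counted. Col1a1 varied less between them, at 1218, 1361 and 1451 CPM against 1058, 1295 and 1112 CPM. The collagens did not enter the clustering, though genes correlated with them did, so these are descriptions.

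**Figure D4:**
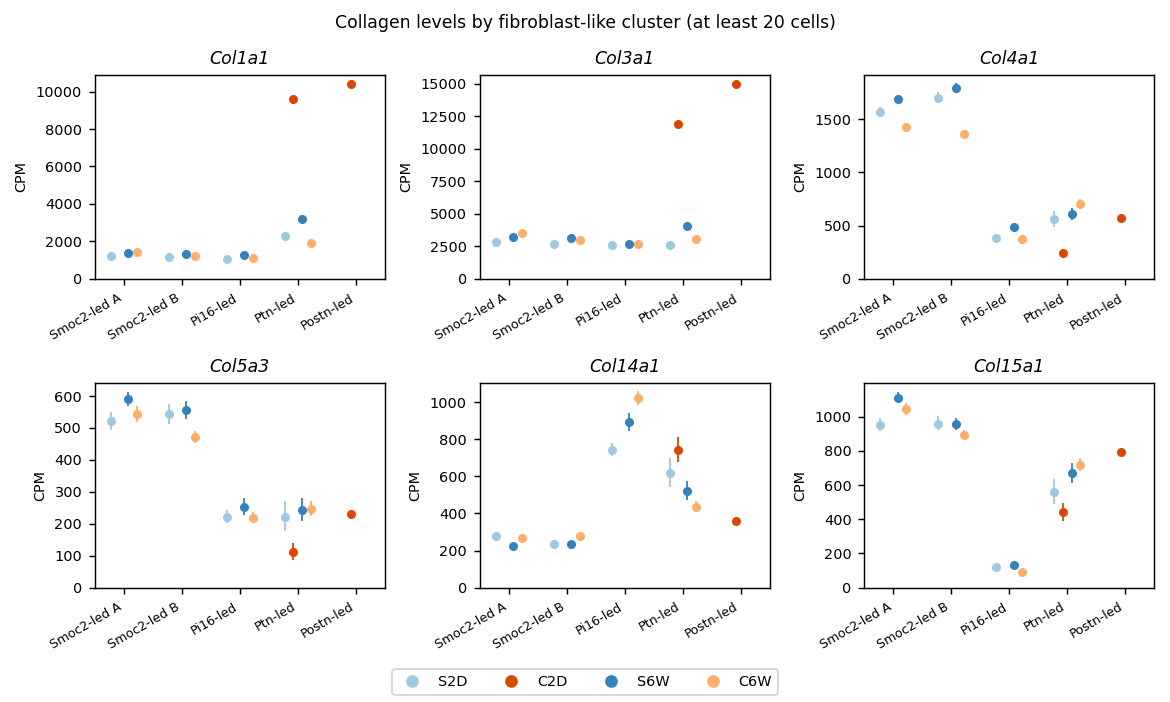
CPM of selected collagens (linear axis) in the fibroblast-like clusters, one point per library with at least 20 cells. Col15a1 and Col4a1 are lowest and Col14a1 is highest in the Pi16-led cluster in the saline libraries, while Col1a1 and Col3a1 are highest in the 2 clusters with caerulein cells at 2 days, at 9595 to 15030 CPM.

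At 6 weeks the collagens of fibroblast-like cells differed little between caerulein and saline. Of 24 measured, 1 was higher and 0 were lower, where all 9914 genes gave 0.656% and 0.646%. The median log2 ratio was 0.02 for the collagens and 0.02 for all genes. Col8a1 was the gene past 2-fold, at 9.37 CPM in saline and 17.3 CPM in caerulein, with a log2 ratio of 1.02 (0.67 to 1.39). Of its 231 UMIs in caerulein, 93 came from the 11 cells of the Postn-led cluster, and of its 92 in saline 23 came from 4 such cells. Without that cluster the log2 ratio of Col8a1 was 0.69 (0.27 to 1.13), and 0 of 24 collagens were past 2-fold, against 0.526% higher and 0.658% lower among all genes. In the Ptn-led cluster alone 0 of 17 were past it, against 1.75% and 0.542%. Over all fibroblast-like cells with plain CPM the Col8a1 ratio was 0.888, also within 2-fold. Col12a1 followed with 14.5 and 19.9 CPM (0.60, interval 0.30 to 0.90), and Col14a1 with 353 and 447 CPM (0.48, interval 0.42 to 0.54). At the other end were Col18a1 and Col8a2, each at -0.34, and Col4a1 and Col4a2, each at -0.28. Col1a1 and Col3a1 were at 0.03 and 0.11. Between the 2 saline libraries, which differ in recovery time and not in treatment, 24 collagens measured in fibroblast-like cells gave 0 higher and 0 lower, against 0.634% and 0.486% of all genes. Their log2 ratios ran from -0.37 to 0.63, a range that takes in every 6-week ratio but that of Col8a1.

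Genes that handle collagen are read against the same shares of all genes, 9.41% higher and 5.78% lower at 2 days. Of 23 measured enzymes and chaperones that modify or fold collagen chains, 4 were higher and 1 was lower in fibroblast-like cells at 2 days, with a median log2 ratio of 0.30. P4ha3, a prolyl 4-hydroxylase subunit, went from 0.806 to 24.5 CPM (5.04). Plod2, a lysyl hydroxylase, went from 115 to 326 CPM (1.62), and Fkbp10, an endoplasmic reticulum chaperone of procollagen, from 70.0 to 156 CPM (1.27). Colgalt2, a collagen galactosyltransferase, went from 22.4 to 3.78 CPM (-2.46). Of 9 measured genes for procollagen cleavage and cross-linking, 4 were higher and 1 lower. The cross-linking enzymes Lox, at 152 and 465 CPM (1.72), and Loxl1, at 308 and 870 CPM (1.61), were among the 4, with the N-propeptidase Adamts2 at 162 and 461 CPM (1.63). Pcolce2, an enhancer of C-propeptide cleavage, was lower at 349 and 31.6 CPM (-3.35).

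Of 21 measured genes whose proteins bind fibrils, 9 were higher and 5 lower in fibroblast-like cells at 2 days (median 0.78), beside the 9.41% and 5.78% of all genes. Fmod, a proteoglycan that regulates fibril assembly, went from 9.27 to 218 CPM (4.67) and Bgn from 970 to 6928 CPM (2.95). Mfap4, a microfibril protein, went from 57.8 to 1447 CPM (4.76). Of 14 measured partners of basement membrane collagen, 2 were higher and 3 lower (median -0.56). The laminin chain gene Lama1 went from 0.403 to 25.6 CPM, a ratio of 6.10 (4.54 to 8.39) that rests on few UMIs in saline, and Sparc, a collagen-binding matrix protein, from 3304 to 12375 CPM (2.02). Lamc3, another laminin chain gene, went from 10.2 to 1.89 CPM (-2.32), and Hspg2, which codes for perlecan, from 937 to 377 CPM (-1.20). Of 8 measured receptor genes, 1 was higher, Cd44 at 53.1 and 115 CPM (1.23), and 1 was lower, Ddr2, a receptor kinase for fibrillar collagen, at 362 and 106 CPM (-1.66). At 6 weeks 0 genes of these 5 lists were higher and 2 were lower, Fmod at 14.8 and 6.46 CPM (-1.06) and Lamc3 at 19.6 and 5.56 CPM (-1.68), beside 0.656% higher and 0.646% lower among all genes.

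Mural-like cells were few. Of their collagens 8 reached the minimum at 2 days, and the 8 were higher after caerulein, where 14.1% of 810 genes were higher and 14.7% lower. Only 2 of the 8, Col4a1 and Col4a2, had 50 UMIs in both libraries, and genes that reached the minimum through caerulein alone had to differ. With no minimum, 14 collagens were higher and 9 lower, but a gene without UMIs in a library was given 3 there. Some collagens seen only in caerulein thus count as lower, such as Col9a3 at 0 CPM in saline and 3.41 CPM in caerulein. Col3a1 was counted 9 times in saline and 369 times in caerulein, or 40.3 and 1257 CPM, with a log2 ratio of 4.90 (3.96 to 6.04). Col1a1 was counted 5 and 106 times (3.95, interval 2.68 to 5.60), Col5a2 10 and 157 times (3.52), and Col6a1 10 and 107 times (2.97). The basement membrane pair was higher too, Col4a1 at 91 and 360 UMIs or 407 and 1227 CPM (1.53, interval 1.20 to 1.88), and Col4a2 at 58 and 249 UMIs (1.65). Col1a2 was at 35 and 131 UMIs (1.45) and Col18a1 at 40 and 125 UMIs (1.19). At 6 weeks, where 17 and 18 cells were too few for a ratio, the saline library was the higher for Col3a1, at 578 CPM against 112 CPM, and for Col4a1, at 670 against 359 CPM. For Col3a1 the 2 saline libraries thus lay 40.3 and 578 CPM apart, a wide spread for libraries without treatment. The 12 fibroblast markers summed to 1118, 3019, 2110 and 1022 CPM in mural-like cells, with 8, 7, 6 and 7 of them present and Pdgfra and Clec3b at 0 in every library. Both that sum and Col3a1 were highest in caerulein at 2 days and next highest in saline at 6 weeks. Dcn was at 67.1, 30.7, 7.70 and 16.8 CPM, and macrophage markers summed to 35.8, 1823, 15.4 and 11.2 CPM, with 4, 11, 1 and 2 of 12 present. Their part in the mural values was not tested.

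In blood endothelial-like cells the type IV pair was the leading collagen. Col4a1 measured 1256, 1678, 1295 and 1424 CPM and Col4a2 measured 983, 1129, 923 and 1156 CPM. Of 4 collagens measured at 2 days, 1 was higher and 1 lower, where 5.4% and 2.97% of 2057 genes were. The higher one was Col15a1, at 307, 719, 323 and 306 CPM, with a log2 ratio of 1.30 (0.96 to 1.65). The lower one was Col13a1, a membrane-spanning collagen found at cell contacts, at 327, 149, 390 and 291 CPM, with a log2 ratio of -1.06 (-1.46 to -0.65). Col13a1 lay close to the rule, and its ratio was -0.999 with doublets kept and -0.972 as a mean over cells. Col4a1 and Col4a2 were within 2-fold at 0.49 and 0.27. For Col15a1 and Col13a1 caerulein at 2 days was the outlying library and the other 3 lay close together, the last of them with 16 cells. Between the saline libraries their log2 ratios were 0.13 and 0.31. Macrophage markers summed to 1855 CPM in the endothelial-like cells of caerulein at 2 days and to 15.4 to 23 CPM in the others. Their part in these values was not tested.

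Col13a1 was nearly private to blood endothelial-like cells. It had 0 UMIs in ductal-like and lymphocyte-like cells and at most 12 in the fibroblast-like cells of a library. The few lymphatic endothelial-like cells, 2, 13 and 6 in the first 3 libraries, also had 0. Col18a1 by contrast had 46 UMIs in the 13 lymphatic cells of caerulein at 2 days, or 437 CPM (320 to 582), against 26 CPM in blood endothelial-like cells of that library.

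The order of classes by Col4a1 changed between libraries. Blood endothelial-like cells, at 1256 CPM, and fibroblast-like cells, at 1211 CPM, did not differ beyond counting error in saline at 2 days. In caerulein at 2 days endothelial-like cells led with 1678 CPM, then mural-like cells with 1227 CPM, then fibroblast-like cells with 555 CPM. At 6 weeks fibroblast-like cells led endothelial-like cells in saline, at 1451 and 1295 CPM, and followed them in caerulein, at 1089 and 1424 CPM, the last from 16 cells. Col4a1 per Col4a2 lay between 1.23 and 1.49 in endothelial-like cells and between 1.53 and 2.32 in fibroblast-like cells. The closest values, 1.49 and 1.53, were both from caerulein at 2 days and did not differ beyond counting error. In ductal-like cells Col4a1 per Col4a2 was 2.99, 2.17, 2.51 and 2.18.

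Ductal-like cells held little collagen, 0.0342%, 0.0452%, 0.0341% and 0.0346% of UMIs. Fibril-forming genes held 18.2% of their collagen UMIs in saline at 2 days. Col18a1 led with 111, 135, 116 and 101 CPM. Col4a1 was at 49.2, 76.8, 48.9 and 39.0 CPM, and Col27a1, a fibril-forming chain, at 57.0, 35.3, 37.7 and 49.5 CPM, so that Col4a1 was above Col27a1 in the caerulein library at 2 days and the saline library at 6 weeks and below it in the others. Col9a3, a chain of a fibril-surface collagen best known from cartilage, was at 35.0, 49.2, 39.7 and 46.5 CPM. Of 7 collagens measured at 2 days, 2 were higher and 0 lower, where 5.16% and 5.77% of 9058 genes were. Col4a2 measured 16.4, 35.3, 19.5 and 17.9 CPM, a log2 ratio of 1.19 (0.83 to 1.55). Col16a1 was counted 45, 100, 7 and 51 times, a log2 ratio of 1.96 (1.44 to 2.50). For Col4a2 the other 3 libraries lay between 16.4 and 19.5 CPM, well under caerulein at 2 days. For Col16a1 they spread from 2.90 to 8.14 CPM. Col4a1, Col9a3, Col18a1, Col4a5 and Col27a1 stayed within 2-fold at 0.73, 0.58, 0.36, -0.26 and -0.61.

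The caerulein ductal cells at 2 days sat mostly in a cluster of their own, 164 of 176, and mural markers summed to 369 CPM in them against 43.1 to 79.4 CPM in the other libraries. The part of this in the ductal values was not tested. With clustering at a resolution of 2, Col4a2 was at 0.536. The ductal-like class then also held a cluster of 84 cells, 58 of them caerulein at 2 days, with acinar as its next type by markers. The part of this in the value was not tested. At 6 weeks 6 collagens were measured in ductal-like cells, and 0 were higher and 0 lower against 0.353% and 0.0853% of all genes. The widest of them were Col27a1 at 0.40 and Col4a1 at -0.32. Free RNA weighed unequally on the ductal collagens. Col18a1 was at 1.01, 3.25, 1.28 and 1.14 UMIs per ductal-like cell and at most 0.0098 per lymphocyte-like cell. Col3a1 in caerulein at 2 days was at 0.295 UMIs per ductal-like and 0.141 per lymphocyte-like cell. Its ratio to Dcn was 1.49 in those ductal-like cells, 1.60 in lymphocyte-like and 1.81 in fibroblast-like cells.

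**Figure D5:**
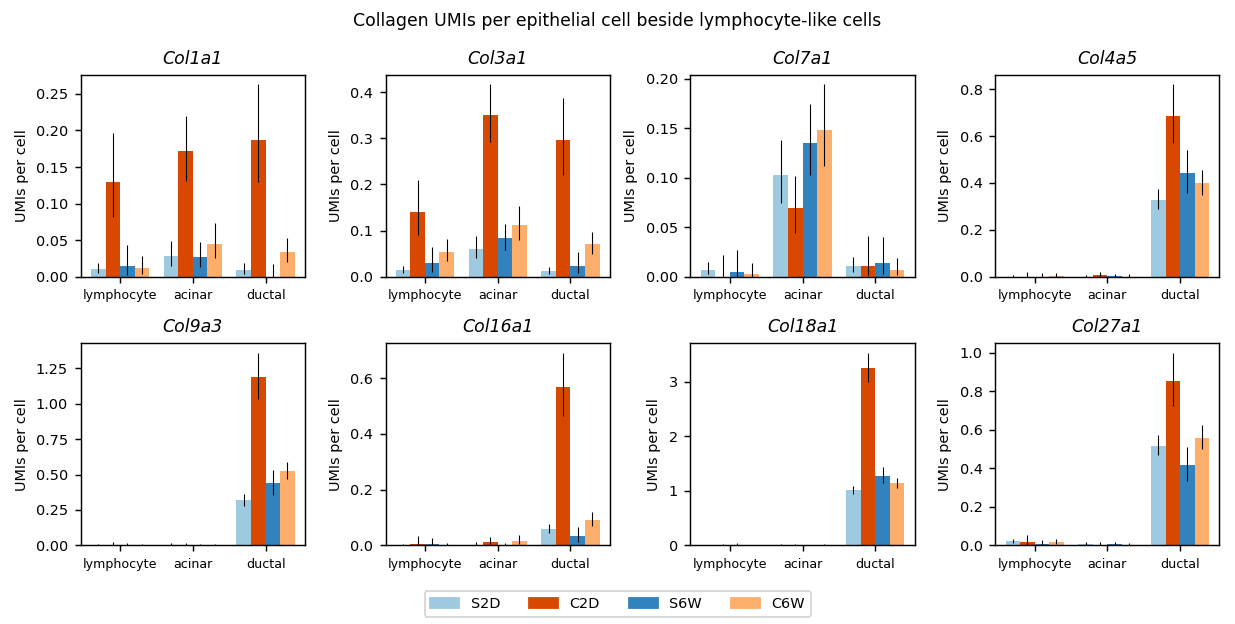
UMIs per cell of collagens in ductal-like and acinar-like cells (linear axis) beside the lymphocyte-like cells of the same library, which stand for free RNA. Col18a1 in ductal-like cells and Col7a1 in acinar-like cells lie well above the lymphocyte level. In caerulein at 2 days Col3a1 also lies above it in ductal-like and acinar-like cells, though lymphocyte-like cells hold some Col3a1 too.

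Acinar-like cells held less collagen than fibroblast-like, mural-like, endothelial-like and ductal-like cells in every library, at 0.00374%, 0.00905%, 0.00324% and 0.00719% of UMIs. Lymphocyte-like cells, the reference for free RNA, were at 0.00209%, 0.00936%, 0.00262% and 0.00320%. At 2 days the 362 acinar-like caerulein cells and the 427 saline ones were in different clusters, with 0 cells of the other library in each. Col7a1, which codes for the anchoring fibril that ties epithelial basement membranes to the stroma, was counted 44, 25, 60 and 53 times there, or 8.02, 5.72, 7.78 and 14.4 CPM. Per cell this was 0.103, 0.0691, 0.135 and 0.149 UMIs, against 0.00709, 0, 0.00490 and 0.00243 in lymphocyte-like cells. The unnamed epithelial cluster gave a like value for Col7a1, 46 UMIs or 0.101 per cell, in caerulein at 2 days. Col7a1 was the acinar collagen measured at 6 weeks, with a log2 ratio of 0.33, where 1.7% of genes were higher and 1.42% lower. At 2 days Col3a1 was the one measured, at 0.89, where 25.6% were higher and 12.1% lower. That value depends on the scaling, since plain CPM gave 2.62, and its ratio to Dcn was 3.34 in acinar-like cells and 1.60 in lymphocyte-like cells of the caerulein library. Macrophage markers summed to 4195 CPM in the acinar-like cells of that library and to 9.34 to 16.8 CPM in the others. Their part in the value of Col3a1 was not tested.

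Several members lie beside each other in the genome (GENCODE vM21 on mm10). Col4a1 (chromosome 8, 11198423 to 11312826, minus strand) and Col4a2 (chromosome 8, 11312805 to 11449287, plus strand) start head to head with an overlap of 22 bases. Their log2 ratios at 2 days had the same sign in each of the 4 classes where both were measured, -1.01 and -0.52 in fibroblast-like, 1.53 and 1.65 in mural-like, 0.49 and 0.27 in endothelial-like and 0.73 and 1.19 in ductal-like cells. Col4a4 (chromosome 1, 82448423 to 82586849, minus strand) and Col4a3 (chromosome 1, 82586921 to 82722059, plus strand) also start head to head, 71 bases apart. Col3a1 (chromosome 1, 45311538 to 45349706, plus strand) and Col5a2 (chromosome 1, 45374321 to 45503282, minus strand) end toward each other over a gap of 24614 bases, and both were higher in fibroblast-like and mural-like cells at 2 days. The bases before the start are printed for the abundant Col3a1 and for Col8a1, the collagen past 2-fold at both times, and the whole stretch between the starts for the Col4a3 and Col4a4 pair. They come from the RefSeq promoter windows of GRCm38.p6 and overlap no annotated exon. Capitals mark TATAAA in Col3a1 and GGGCGG read from the opposite strand in Col8a1, and the last has no capitals because none of the motifs searched was in it.
Col3a1, chr1:45311418-45311537, plus strand: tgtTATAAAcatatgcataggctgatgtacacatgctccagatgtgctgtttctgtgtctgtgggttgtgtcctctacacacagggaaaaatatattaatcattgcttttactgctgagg
Col8a1, chr16:57754738-57754857, minus strand: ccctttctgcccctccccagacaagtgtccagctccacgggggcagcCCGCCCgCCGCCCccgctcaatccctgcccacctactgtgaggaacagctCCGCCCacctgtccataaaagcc
Col4a4 to Col4a3, chr1:82586850-82586920, plus strand: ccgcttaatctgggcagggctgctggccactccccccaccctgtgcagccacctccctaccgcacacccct

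The motifs were letters searched on both strands of windows of 300 bases, 250 before to 50 after a start, which were held for 35 of the 44 members. A gene counted when any of its windows matched. GGGCGG was in 22 of the 35 and in 38.2% of all 27025 genes with windows. CCAAT was in 13 and in 41.1%, TATAAA in 5 and in 15.7%, and TGANTCA in 1 and in 8.97%. A match here is a description of the letters and not of binding.

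The 14 members under 100 UMIs in every class were Col2a1, Col4a6, Col6a4, Col9a1, Col9a2, Col10a1, Col11a2, Col17a1, Col19a1, Col22a1, Col24a1, Col25a1, Col26a1 and Col28a1. Col4a6 came closest, with 89 UMIs in its largest class and 189 over all cells, followed by Col24a1 with 88. Col9a1 had 0 UMIs in all 4 libraries. No ratio is given for these genes.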

How the data were processed

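Each of the 4 libraries was deposited as raw UMI counts per gene and cell barcode, made by the authors with Cell Ranger 3.0.2 on mm10, per the submitters' processing notes. Total UMIs were 36914373, 71547194, 29145886 and 33788935 over 5316, 5433, 2623 and 4195 barcodes (saline and caerulein at 2 days, saline and caerulein at 6 weeks). Barcodes under 500 UMIs or 200 genes, or above 20% mitochondrial UMIs, were dropped, which left 3346, 4656, 2032 and 2773 cells. Scrublet, run per library, called 38, 5, 14 and 30 doublets, which were left out. The 0.107% it marked in caerulein at 2 days is too low to trust.

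Counts were scaled to 10000 per cell and clustered with scanpy 1.11.5, giving 31 clusters. Settings were 2000 variable genes without the collagens, 40 components, 15 neighbours and Leiden resolution 1 with igraph 0.11.9 and seed 1. A cluster was called after a type when the mean log2 fold of that type's markers was at least 1, at least 3 were raised and the lead over the next type was at least 0.5. That type also needed more markers among the cluster's 10 leading genes than any other type present there, with digestive enzymes counted as acinar. UMIs were summed per class and library. Ratios used TMM totals from edgeR 4.0.16 (R 4.3.3), with exact conditional binomial intervals (scipy 1.17.1). CPM has exact Poisson intervals. All are 95% intervals and cover counting error only. A ratio needed 20 cells in each library and 100 UMIs over both. A gene without UMIs in a library was given 3 there for the ratio. The ratio formula was tested on simulated counts of fibroblast-like cells at 2 days, with counts under 3 raised to 3. The other steps were not tested in this way.

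Collagens with 100 UMIs over the 4 libraries in a class could be named, and from each list around collagens up to 4 genes with the widest ratios. The members and lists were chosen with earlier results of these data known. Alternatives covered scaling (DESeq2 1.42.0 size factors, plain CPM, totals without collagen or digestive genes), minimums, cell filters, doublets, thinning to 1000 UMIs, free RNA subtraction, resolution, the control library and which fibroblast clusters were used. Free RNA was not subtracted otherwise.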

Additional observations from a re-analysis of the deposited data

Results flagged for a closer look

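At 2 days some collagens had log2 ratios of opposite sign in different classes, each in 1 library per group, and the differences were not tested. The ratio of Col4a1 was -1.01 in fibroblast-like, 1.53 in mural-like, 0.49 in blood endothelial-like and 0.73 in ductal-like cells, the last 2 within 2-fold, with gaps of 2.54, 1.5 and 1.74. Col4a2, at -0.52 in fibroblast-like cells, stood 2.17 below its ratio in mural-like and 1.71 below that in ductal-like cells. Col18a1 stood 1.58 lower in fibroblast-like (-0.39) than in mural-like cells (1.19). These gaps compare TMM scales set within each class.

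Macrophage-like cells, which the comparisons above do not use, held 1.77 collagen UMIs per cell in caerulein at 2 days, above the 0.635 of lymphocyte-like cells in that library and the 0.5 of macrophage-like cells in saline at 2 days. They also held more RNA, 14174 UMIs per cell against 6786 in lymphocyte-like cells, and collagen was 0.0125% and 0.00936% of UMIs in these.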

How the results depend on the processing

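With 1 library per group none could be left out. No paired analysis was possible because the groups hold 1 library each. Of 1198 alternative values for 78 ratios of single genes, 1 changed direction, Col4a3 in fibroblast-like cells at 2 days, to 0.645 without the Postn-led cluster. That setting and the use of the Ptn-led cluster alone were chosen after seeing the data. The counts of collagens past 2-fold moved as follows, and the minimum and thinning change how many genes are measured. With no minimum, a gene without UMIs in a library was given 3 there, so genes seen in caerulein alone can count as lower. In fibroblast-like cells at 2 days, the 12 higher became 13 with a minimum of 20, 9 with 400, 16 with none, 7 with cells thinned, 7 without the Postn-led cluster and 4 in the Ptn-led cluster alone. The 2 lower became 1 with a minimum of 400 UMIs, with doublets kept and in the Ptn-led cluster alone, and 5 with no minimum. At 6 weeks, the 1 higher (Col8a1) became 0 with plain CPM, totals without collagen or digestive genes, a minimum of 400, thinning, a mean over cells, doublets removed by rate, collagens kept in clustering, no Postn-led cluster or the Ptn-led cluster alone, and 2 with no minimum. The 0 lower became 1 with a minimum of 20 and 4 with none. In mural-like cells the 8 higher became 12 with a minimum of 20, 1 with 400, 14 with none and 0 thinned, where 0 were measured. The 0 lower became 1 with a minimum of 20 and 9 with none. In endothelial-like cells the 1 higher became 3 with a minimum of 20 or none and 0 thinned. The 1 lower became 0 with a minimum of 400, thinning, a mean over cells, doublets kept or removed by rate, and 14 with no minimum. Some of the 14 were seen only in caerulein, such as Col27a1 at 0 CPM in saline and 4.33 CPM in caerulein. In ductal-like cells at 2 days the 2 higher became 7 with a minimum of 20, 16 with none, 0 with 400 or thinning, and 1 at resolution 2. The 0 lower became 1 with a minimum of 20, stricter cell filters or doublets removed by rate, and 3 with no minimum. With stricter filters and doublets by rate the ductal-like class took in clusters with acinar as next type, holding 265 and 300 caerulein cells at 2 days. At 6 weeks the 0 higher became 2 with a minimum of 20 and 9 with none, and the 0 lower became 3 with none and 1 with doublets kept. Apart from the minimum and the cells used, the cause was not tested. TMM against plain CPM shifted fibroblast ratios by 0.11 at 2 days and 0.14 at 6 weeks, and acinar ratios at 2 days by -1.72. Mural-like cells fell under 20 with doublets removed by rate, so no ratio was run. Low UMI totals limit what can be read for mural-like and lymphatic endothelial-like cells and for the 14 scarce members.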

Other observations

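Col14a1 had the most UMIs of any collagen in macrophage-like cells of every library. It was counted 24, 996, 38 and 17 times in 86, 2317, 134 and 120 such cells (saline and caerulein at 2 days, saline and caerulein at 6 weeks). This was 0.279, 0.430, 0.284 and 0.142 UMIs per macrophage-like cell, against 0.0233, 0.0176, 0.0245 and 0.0291 per lymphocyte-like cell. Col14a1 per Dcn was 1.60, 2.14, 0.809 and 0.486 in macrophage-like cells and 0.0216, 0.0472, 0.0188 and 0.0237 in fibroblast-like cells. In lymphocyte-like cells it was 0.253, 0.200, 0.312 and 0.141, in mural-like cells 0.556 to 2.00, and in ductal-like cells of caerulein at 2 days 1.09, so the macrophage range overlapped those of other classes. The fibrillar Col1a1 and Col3a1 had 0 UMIs in macrophage-like cells of saline at 2 days. In caerulein at 2 days those cells held 975 Col3a1 UMIs, or 0.421 per cell, against 0.141 per lymphocyte-like cell.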
